A study of Arabidopsis thaliana with 3 samples.

Results

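The homeobox genes STM (SHOOT MERISTEMLESS), KNAT1 (also BREVIPEDICELLUS), WUS (WUSCHEL) and KNAT2 were followed across 3 organs of wild-type Arabidopsis thaliana (accession Col-0). They are 4 of the 33857 identifiers, called loci here, that each library lists, and were taken by their positions in the files, Chr1:23058581-23061722 for STM, Chr4:5147699-5150966 for KNAT1, Chr2:7808870-7810795 for WUS and Chr1:26576485-26582431 for KNAT2. Strand-specific RNA sequencing had been done on silique (the fruit with its seeds), inflorescence and leaf. The labels equate inflorescences with flowers, and how much of the shoot tip with its meristem was taken along is not given in the sources used here. Each organ gave 1 library, so the differences below rest on single libraries and carry no error or p-value. All 3 organs were wild type and came from plants 5.5 weeks old, kept at 16 hours of light. At 3 weeks these plants had received uncoated gold particles of 0.6 µm by biolistic delivery, and the organs were taken 18 days later. No plant without this mock treatment was analysed here, and the number of plants behind a library is not given in the sources used here.

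The shoot meristem is the dividing tissue at the shoot tip that forms leaves, stems and flowers and keeps a pool of stem cells. STM, KNAT1 and KNAT2 encode class I KNOX proteins, a group of homeodomain transcription factors that hold meristem cells in an undifferentiated state and are silenced where a leaf forms. STM is needed to form and keep the meristem, KNAT1 shapes internodes, pedicels and the replum of the fruit, and KNAT2 has been linked to carpel development. WUS encodes a homeodomain protein of the WOX family, made in a small group of cells below the stem cells, and it keeps those stem cells in place. It is switched off in a flower once the carpels begin to form.

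STM was at 14.1 FPKM in silique, 58.3 in inflorescence and 2.15 in leaf. FPKM scales fragments by the length of the transcript and a total of the library, and which total was used here is not given. KNAT1 was at 9.09 FPKM in silique, 33.3 in inflorescence and 1.20 in leaf. KNAT2 was lower throughout, at 1.05 FPKM in silique, 6.39 in inflorescence and 0.490 in leaf. All 3 KNOX genes thus had their highest value in inflorescence, an intermediate one in silique and the lowest in leaf. WUS was at 0.0751 FPKM in silique, 10.96 in inflorescence and 0.0481 in leaf, so it passed 1 FPKM, taken here as detection, in inflorescence alone. The order of the KNOX genes, inflorescence over silique over leaf, was found at 3764 (20.1%) of the 18697 loci that reached 5 FPKM in any organ. Inflorescence held 78.2% of the FPKM of STM summed over the organs, 76.4% of that of KNAT1, 80.6% of that of KNAT2 and 98.9% of that of WUS. An inflorescence share at least as high as that of KNAT1 was found at 5.02% of the 18697 loci, and one at least as high as that of WUS at 1.12%.

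**Figure D1:**
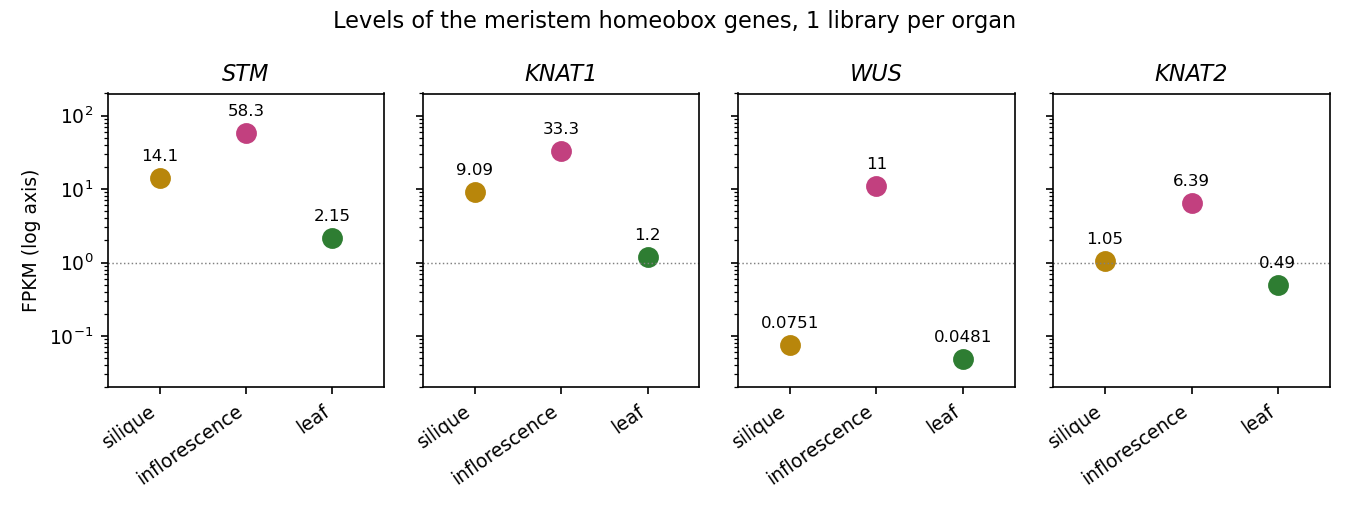
FPKM of STM, KNAT1, WUS and KNAT2 (log axis) in silique, inflorescence and leaf, 1 point per library; the dotted line is 1 FPKM. Every gene is highest in inflorescence, and WUS is at 0.0751 FPKM in silique and 0.0481 in leaf.

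With 1 added to the starts of the files, STM lies on chromosome 1 of the TAIR10 build from 23058582 to 23061722 (AT1G62360) and KNAT2 on the same chromosome from 26576486 to 26582431 (AT1G70510). KNAT1 lies on chromosome 4 from 5147700 to 5150966 (AT4G08150), and WUS on chromosome 2 from 7808871 to 7810795 (AT2G17950). The added 1 gave the reference start for STM, WUS and KNAT2, whereas for KNAT1 the start as given did. These intervals span exons and introns together. Each of the 4 intervals carries 1 identifier, and 0 other loci overlap any of them. In rank, STM was number 10591 of the 33857 loci in silique, number 2628 in inflorescence and number 16942 in leaf. KNAT1 ranked 13213 in silique, 4768 in inflorescence and 18106 in leaf. The median of the nonzero loci within 10% of the width of STM was 12.9 FPKM in silique, 12.4 in inflorescence and 13.6 in leaf, so STM was above it in silique and inflorescence and below it in leaf.

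Against leaf, the inflorescence level was higher for all 4 genes. Differences are given as log2(FPKM + 1) of the first organ minus that of the second, and a locus was counted when FPKM + 1 differed at least 4-fold (2 on the log2 scale) and the higher organ reached 5 FPKM. For inflorescence over leaf the difference was 4.24 for STM, 3.97 for KNAT1, 3.51 for WUS and 2.31 for KNAT2. All 4 genes were past the rule. WUS and KNAT2 lost the call with a pseudocount of 5 (1.66 and 1.05) and with a minimum of 20 FPKM, and KNAT2 also at 8-fold. Over all loci, 12.1% of 17444 with the minimum in either organ were past it with inflorescence higher and 8.11% with leaf higher. As a plain ratio of FPKM, inflorescence was 27.1 times leaf for STM, 27.9 times for KNAT1 and 13.0 times for KNAT2. For WUS it was 228 times, on a leaf value under detection. The members were chosen with these results known, so their count is a description of the 4 genes.

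Silique was higher than leaf for STM and KNAT1, with differences of 2.26 and 2.20, and both were past the rule. Both calls were lost with a pseudocount of 5 (1.42 and 1.18), with a minimum of 20 FPKM and at 8-fold. KNAT2, at 0.46, was not, and its higher value of 1.05 FPKM was under the minimum. WUS differed by 0.04 at levels under detection in both organs. So 2 of the 4 genes were counted with silique higher and 0 of the 4 with leaf higher. Of the 17451 loci with the minimum in either organ, these shares were 12.2% and 5.94%. WUS and KNAT2 are not among those loci and could not be counted either way.

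Silique was lower than inflorescence for all 4 genes, but WUS alone passed the rule. Its difference was -3.48, against -1.97 for STM, -1.77 for KNAT1 and -1.85 for KNAT2. The rule counted 5.52% of 17793 loci with inflorescence higher and 7.26% with silique higher. STM lay close to the threshold: its FPKM in silique was 0.242 of that in inflorescence, and it passed the rule with a pseudocount of 0.1 (-2.04), with the libraries scaled to a median ratio of 0 (-2.05) and with sums equalised without the 100 highest loci (-2.13). KNAT2 also passed with a pseudocount of 0.1 (-2.49), and WUS lost the call with a pseudocount of 5 (-1.65) and with a minimum of 20 FPKM. KNAT1 in silique was at 0.273 of its inflorescence FPKM and KNAT2 at 0.165. For WUS that ratio was 0.00686.

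**Figure D2:**
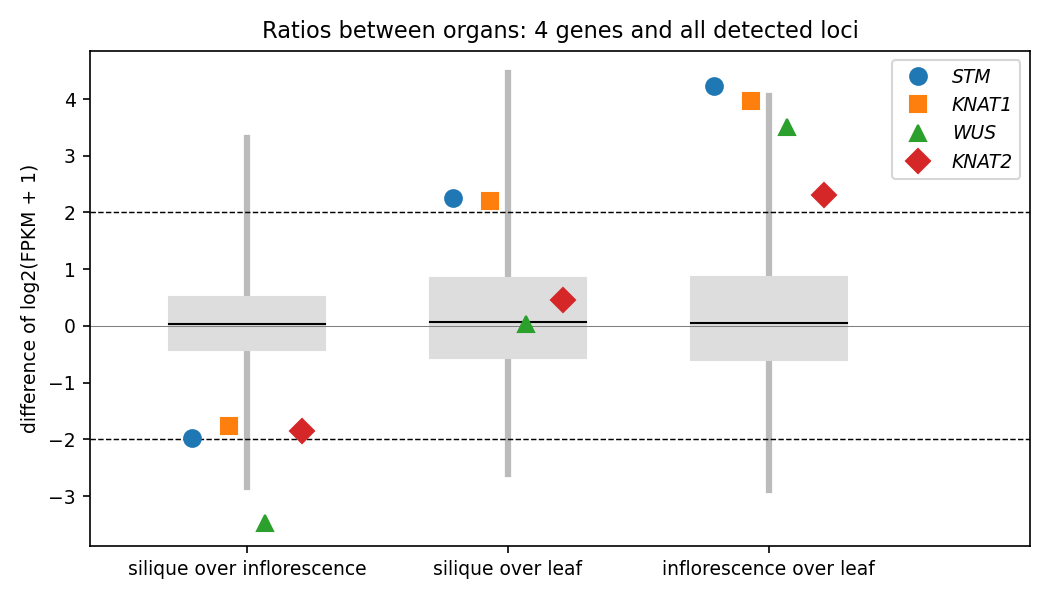
Difference of log2(FPKM + 1) between organs for the 4 genes (symbols), beside all 23036 loci that reached 1 FPKM in any organ (black line, median; box, middle 50%; grey bar, middle 95%); dashed lines mark 4-fold. With 1 added to FPKM, WUS lies apart from the KNOX genes in silique over inflorescence, and STM has the widest difference of the 4 genes in inflorescence over leaf. With a pseudocount of 0.1 the widest in that pair is WUS (6.22, against 4.70 for STM).

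The WUS values outside the inflorescence were low among nonzero loci of like width. Of 2655 nonzero loci in silique with a width within 10% of that of WUS, 5.08% were lower than it, and its value was 6.22 times the lowest of them. In leaf 4.34% of 2444 such loci were lower, and WUS was at 2.64 times the lowest. In inflorescence 50.9% of 2704 such loci were lower, so WUS sat at about the middle of them. How many fragments these values stand for is not known, and the order of silique and leaf for WUS is therefore not read. With the values so low, the WUS difference moved with the pseudocount: silique over inflorescence was -5.98 with 0.1 and -1.65 with 5, and inflorescence over leaf was 6.22 and 1.66.

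The class I KNOX genes were also compared as a group. KNAT6, the remaining class I gene, which acts at organ boundaries, was at 2.87 FPKM in silique, 8.60 in inflorescence and 0.995 in leaf, and like the other class I genes it was past the rule for inflorescence over leaf (2.27). Summed over STM, KNAT1, KNAT6 and KNAT2, class I KNOX reached 27.1 FPKM in silique, 106.6 in inflorescence and 4.83 in leaf. The sum in silique was thus 0.254 of that in inflorescence, and the sum in inflorescence 22.1 times that in leaf. STM made up 52.0% of the sum in silique, 54.7% in inflorescence and 44.5% in leaf. KNAT1 made up 33.5% in silique, 31.3% in inflorescence and 24.8% in leaf. KNAT6 made up 10.6% in silique, 8.06% in inflorescence and 20.6% in leaf, and KNAT2 3.89%, 5.997% and 10.1% in the same order. The ratio of STM to KNAT1 was 1.55 in silique, 1.75 in inflorescence and 1.79 in leaf. The ratios to KNAT2 varied more: KNAT1 over KNAT2 was 8.63 in silique, 5.21 in inflorescence and 2.44 in leaf, and KNAT6 over KNAT2 was 2.73, 1.34 and 2.03. KNAT6 (0.995 FPKM) and KNAT2 (0.490) were under detection in leaf, and KNAT2 was barely above it in silique (1.05). Their shares and ratios there rest on low values. STM over WUS was 188 in silique, 5.32 in inflorescence and 44.7 in leaf, where the first and last rest on the low WUS values. In bulk organs like these, fewer cells that express a gene and less RNA per cell cannot be told apart.

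**Figure D3:**
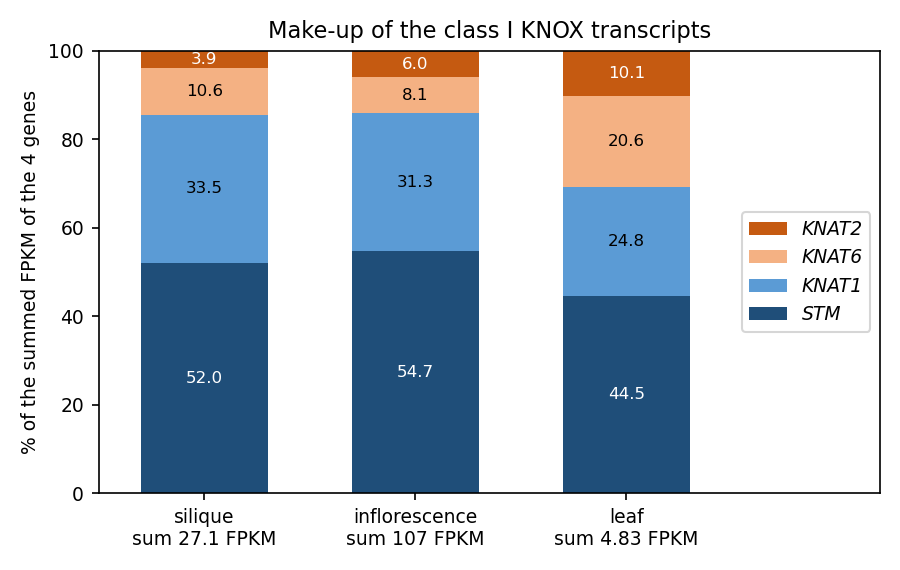
Percent of the summed FPKM of the 4 class I KNOX genes taken by each of them, in silique, inflorescence and leaf, with the sum under each bar. STM and KNAT1 together hold most of the sum in every organ. The KNAT6 and KNAT2 shares are highest in leaf, where both genes are under 1 FPKM.

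The 4 genes were set beside the other genes of their homeobox families. Over all loci with the minimum, 12.1% passed with inflorescence over leaf and 8.11% with leaf over inflorescence. For silique over leaf it was 12.2%, and 5.94% the other way. For silique over inflorescence it was 7.26%, and 5.52% the other way. Counts in these and later lists are out of all named genes, with or without the minimum. The 34 KNOX, BELL and WOX genes at named loci summed to 330.4 FPKM in silique, 352.3 in inflorescence and 575.3 in leaf. Class I KNOX took 8.21% of that sum in silique, 30.3% in inflorescence and 0.840% in leaf. Among the 34 genes STM was number 10 in silique, number 1 in inflorescence and number 14 in leaf. In inflorescence KNAT1 was number 3, WUS number 10 and KNAT2 number 16. In silique the highest of the 34 was KNAT7, at 64.5 FPKM, and in leaf it was KNAT4, at 157 FPKM.

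Class II KNOX genes, which act in differentiating tissue, and KNATM, which encodes a KNOX protein without a homeodomain, made up a list of 5. KNAT3 was at 41.1 FPKM in silique, 35.6 in inflorescence and 74.2 in leaf, and KNAT5 at 15.3, 17.9 and 30.2 in the same order. KNAT4, at 21.1 FPKM in silique, 30.9 in inflorescence and 157 in leaf, was past the rule with leaf higher against both. KNAT7, a gene of secondary walls, went the other way, at 64.5 FPKM in silique, 9.71 in inflorescence and 1.91 in leaf, and was past the rule with silique higher in both pairs. KNATM was at 11.5 FPKM in silique, 3.33 in inflorescence and listed at 0 in leaf, and passed for silique against leaf. The list's median difference was 0.20 for silique over inflorescence, -0.84 for silique over leaf and -0.72 for inflorescence over leaf. Over all 16782 named loci detected in any organ these medians were 0.03, 0.13 and 0.10.

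BELL proteins pair with KNOX proteins, and the pair enters the nucleus and binds DNA. Of 13 BELL genes, 11 were at named loci. None was past the rule for silique against inflorescence or for silique against leaf, and 3 were past it with leaf higher than inflorescence. These were BLH2, at 6.19 FPKM in inflorescence and 49.3 in leaf, BLH4, at 7.58 and 42.9, and BEL1, a gene of ovule development, at 10.03 and 51.5. BEL1 was at 14.8 FPKM in silique. Median differences were 0.41 for silique over inflorescence, -0.77 for silique over leaf and -1.42 for inflorescence over leaf. The BELL partners best known from the shoot meristem did not exceed the rule in any pair. RPL (also PENNYWISE) was at 16.5 FPKM in silique, 25.4 in inflorescence and 15.7 in leaf. PNF (POUND-FOOLISH) was at 4.29, 5.82 and 1.38 FPKM, and ATH1 at 3.50, 7.80 and 13.7, in the same order of organs. RPL and PNF had their highest value in inflorescence, as STM did, and ATH1 in leaf.

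Of 15 WOX genes, 14 were at named loci and 9 reached 1 FPKM in any organ. WOX13 could not be named. With WUS counted in, 1 WOX gene was past the rule with silique higher than inflorescence and 1 with inflorescence higher, 2 with silique higher than leaf and 1 with leaf higher, and 2 with inflorescence higher than leaf and 1 with leaf higher. WOX9, which keeps cells dividing in meristems and embryos, was at 7.96 FPKM in silique, 23.3 in inflorescence and 0.103 in leaf, past the rule against leaf in both organs. WOX8, of the early embryo and its suspensor, was at 6.58 FPKM in silique, 0.103 in inflorescence and listed at 0 in leaf. WOX2, known from the apical part of the embryo, was at 1.33 FPKM in silique, 0.179 in inflorescence and 8.57 in leaf. The list's medians were -0.59 for silique over inflorescence, 1.29 for silique over leaf and 0.82 for inflorescence over leaf. Among the 9 detected WOX genes, 3 were highest in silique, 5 in inflorescence and 1 in leaf.

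**Figure D4:**
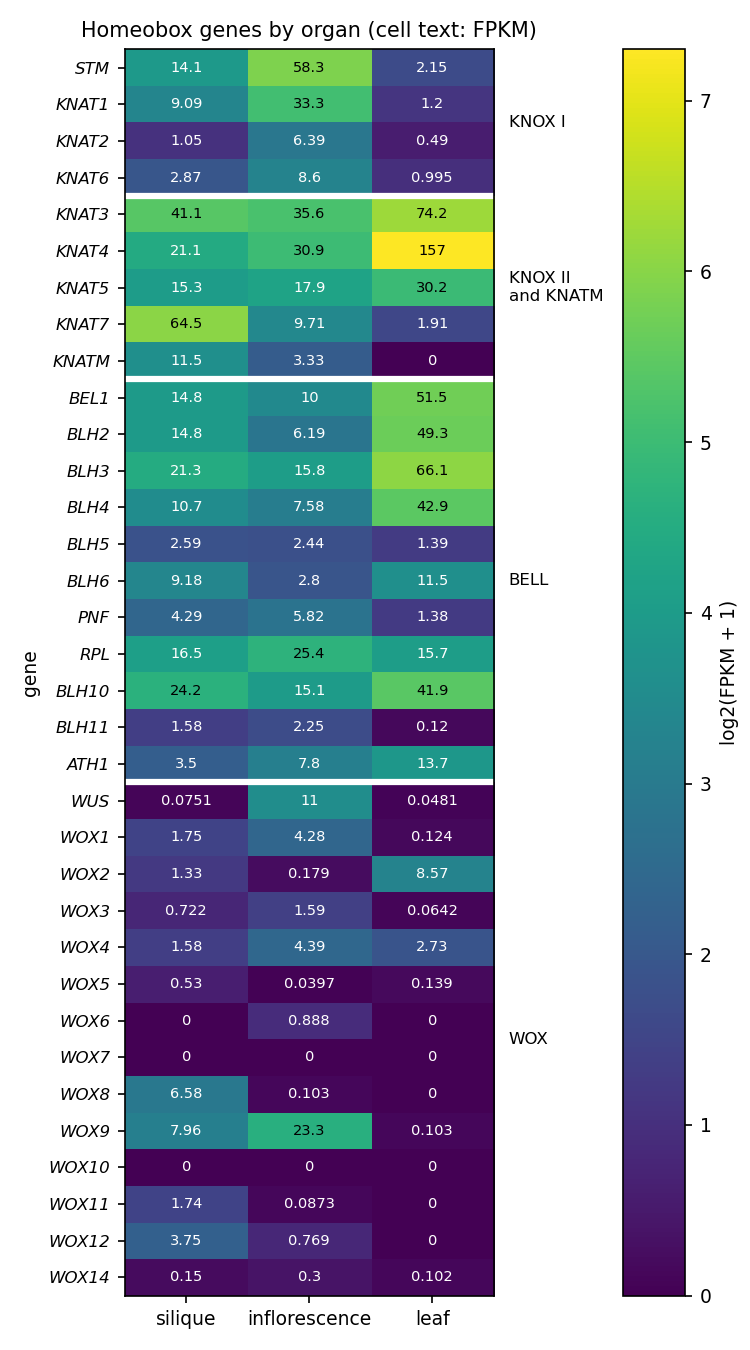
The 34 named KNOX, BELL and WOX genes in silique, inflorescence and leaf, coloured by log2(FPKM + 1) with the FPKM in each cell and families separated by white lines. STM has the highest inflorescence value, KNAT7 the highest silique value and KNAT4 the highest leaf value.

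WUS is limited by a feedback in which the CLV3 peptide, made by stem cells, acts through receptor kinases such as CLV1, and HAM proteins act together with WUS. CLV3 was listed at 0 in all 3 organs, inflorescence included, where WUS was at 10.96 FPKM. Such a 0 may be an estimate that failed or a transcript that was missing, and the files do not say which. CLV1 was at 13.9 FPKM in silique, 11.8 in inflorescence and 40.2 in leaf, its highest value being in leaf. Of 14 genes in the list, 12 were named. None was past the rule for silique against inflorescence or inflorescence against leaf. For silique against leaf, PLL1, a phosphatase gene of the CLAVATA pathway, was past it with silique higher (8.82 FPKM against 0.974), and HAM3 with leaf higher (8.94 against 48.0). Median differences were -0.34 for silique over inflorescence, -0.42 for silique over leaf and -0.16 for inflorescence over leaf.

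Of 10 genes that act on WUS or with it in the flower 8 were named, and 5 of the 8 were past the rule with inflorescence higher than leaf, with a median difference of 2.83 over the 7 detected. In silique against inflorescence 3 of 8 were past it with inflorescence higher (median -1.47), and in silique against leaf 2 of 8 with silique higher (median 0.82). AG, which ends WUS expression in the flower, was at 28.4 FPKM in silique, 59.7 in inflorescence and 1.26 in leaf. KNU, a repressor of WUS that AG switches on, was under detection in every organ, at 0.0629 FPKM in silique, 0.706 in inflorescence and listed at 0 in leaf. LFY, a floral identity gene that activates AG together with WUS, was at 0.0479 FPKM in silique, 1.20 in inflorescence and 0.197 in leaf. AP1, of floral meristem identity, was at 4.47 FPKM in silique, 70.5 in inflorescence and 0.516 in leaf. CRC, which acts in the carpel to end the floral meristem, was at 0.0606, 39.5 and 0.126 FPKM in the same order. Like WUS, CRC held nearly all of its summed FPKM in inflorescence. SUP, which bounds stamens and carpels, was at 1.01 FPKM in silique, 7.08 in inflorescence and 0.137 in leaf. ULT1 was the exception, with its highest value in silique: 37.5 FPKM in silique, 21.2 in inflorescence and 2.49 in leaf.

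Repressors of class I KNOX genes in lateral organs were named in 4 of 7 cases. AS1, the MYB gene that silences KNAT1 and KNAT2 in leaves, shares its position with another identifier and could not be named. Its partner AS2 was at 5.82 FPKM in silique, 9.79 in inflorescence and 1.34 in leaf, past the rule for inflorescence over leaf. AS2 therefore had the same order of organs as the KNOX genes. JLO was at 28.7 FPKM in silique, 1.39 in inflorescence and 0.932 in leaf, past the rule with silique higher in both pairs. No other member was past it in any pair. Medians over the 4 were -0.81 for silique over inflorescence, 0.72 for silique over leaf and 0.58 for inflorescence over leaf.

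Boundary genes act with STM to separate organs. CUC1 was at 4.28 FPKM in silique, 1.30 in inflorescence and 0.161 in leaf. CUC2 was at 0.508, 3.57 and 0.0434 FPKM and CUC3 at 0.938, 2.24 and 0.315, in the same order. CUC2 and CUC3 thus had their highest value in inflorescence and CUC1 in silique, all under the minimum of 5 FPKM. Of 6 boundary genes 1 was past the rule: LOF1, at 0.693 FPKM in silique, 8.10 in inflorescence and 0.181 in leaf, with inflorescence higher in both pairs. The list's median was -1.60 for silique over inflorescence, 0.53 for silique over leaf and 1.30 for inflorescence over leaf.

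Among HD-ZIP III genes, homeobox genes of the upper side of organs and of the meristem, 0 of the 4 named were past the rule in any pair. The widest difference among them was -1.18, for CNA in silique over inflorescence. PHB was at 22.4 FPKM in silique, 22.6 in inflorescence and 17.3 in leaf. PHV was at 41.6, 26.7 and 26.0 FPKM, CNA at 9.37, 22.4 and 16.6, and HB8 at 7.15, 9.82 and 12.96, in the same order. The median differences were -0.21 for silique over inflorescence, -0.20 for silique over leaf and 0.20 for inflorescence over leaf. The list of organ initiation, for auxin flow and primordia at the meristem flank, had 7 of 9 genes named and 5 detected. PID, a kinase gene of auxin transport, was at 12.1 FPKM in silique, 24.0 in inflorescence and 1.42 in leaf, past the rule against leaf in both organs. MP, an auxin response factor gene, was past it for inflorescence against leaf (36.5 FPKM against 6.98), and AIL6 for silique against leaf (12.2 against 1.74). No member passed for silique against inflorescence, where the median was -0.84, and the medians were 1.85 for silique over leaf and 1.86 for inflorescence over leaf.

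KNOX proteins raise cytokinin and lower gibberellin in the meristem, and genes of both hormones were read beside them. IPT7, a cytokinin synthesis gene that STM can switch on, was at 0.453 FPKM in silique, 0.426 in inflorescence and 1.38 in leaf. Its highest value was in leaf, but silique and inflorescence were under detection and no pair passed the rule. The cytokinin receptor gene HK4 was at 6.16 FPKM in silique, 8.002 in inflorescence and 8.25 in leaf, and the response gene ARR7, which WUS represses, at 24.2, 23.6 and 18.8. Of 13 named cytokinin genes, 0 were past the rule for silique against inflorescence and 3 for silique against leaf, all with leaf higher. For inflorescence against leaf 1 was past it with inflorescence higher and 2 with leaf higher. IPT3, another synthesis gene, was at 0.394 FPKM in silique, 0.435 in inflorescence and 19.9 in leaf. The response gene ARR4 was at 30.6, 24.6 and 137 FPKM, and ARR16 at 13.5, 41.6 and 59.4. CKX3, for a cytokinin-degrading enzyme, was the member higher in inflorescence, at 1.17 FPKM in silique, 5.78 in inflorescence and 0.0813 in leaf. Medians of the cytokinin list were -0.02 for silique over inflorescence, -0.41 for silique over leaf and -0.02 for inflorescence over leaf.

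GA20OX1, a gibberellin synthesis gene that STM represses, was at 0.570 FPKM in silique, 2.52 in inflorescence and 1.20 in leaf. All 7 gibberellin genes were at named loci, and 3 were past the rule with silique higher than leaf, 2 with inflorescence higher than leaf and 1 with silique higher than inflorescence. GA20OX3 was at 85.6 FPKM in silique, 0.0529 in inflorescence and 0.143 in leaf. GA20OX2 was at 21.9 FPKM in silique, 18.2 in inflorescence and 0.374 in leaf. GA2OX2, for an enzyme that inactivates gibberellin, was at 49.8, 44.9 and 4.80 FPKM in the same order. The medians were 0.25 for silique over inflorescence, 1.60 for silique over leaf and 0.60 for inflorescence over leaf.

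In the fruit KNAT1 and RPL act in the replum, the strip between the valves, and KNAT1 restrains floral organ abscission. Of 9 genes of the replum, valve margin and abscission 6 were named, and 2 were past the rule, both with silique higher than leaf. IND, a valve margin gene, was at 10.1 FPKM in silique, 3.15 in inflorescence and 0.0994 in leaf, and HSL2, an abscission receptor gene, at 34.5, 8.66 and 7.43. No member was past it in the other pairs. The medians were -0.14 for silique over inflorescence, -0.06 for silique over leaf and 0.43 for inflorescence over leaf.

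**Figure D5:**
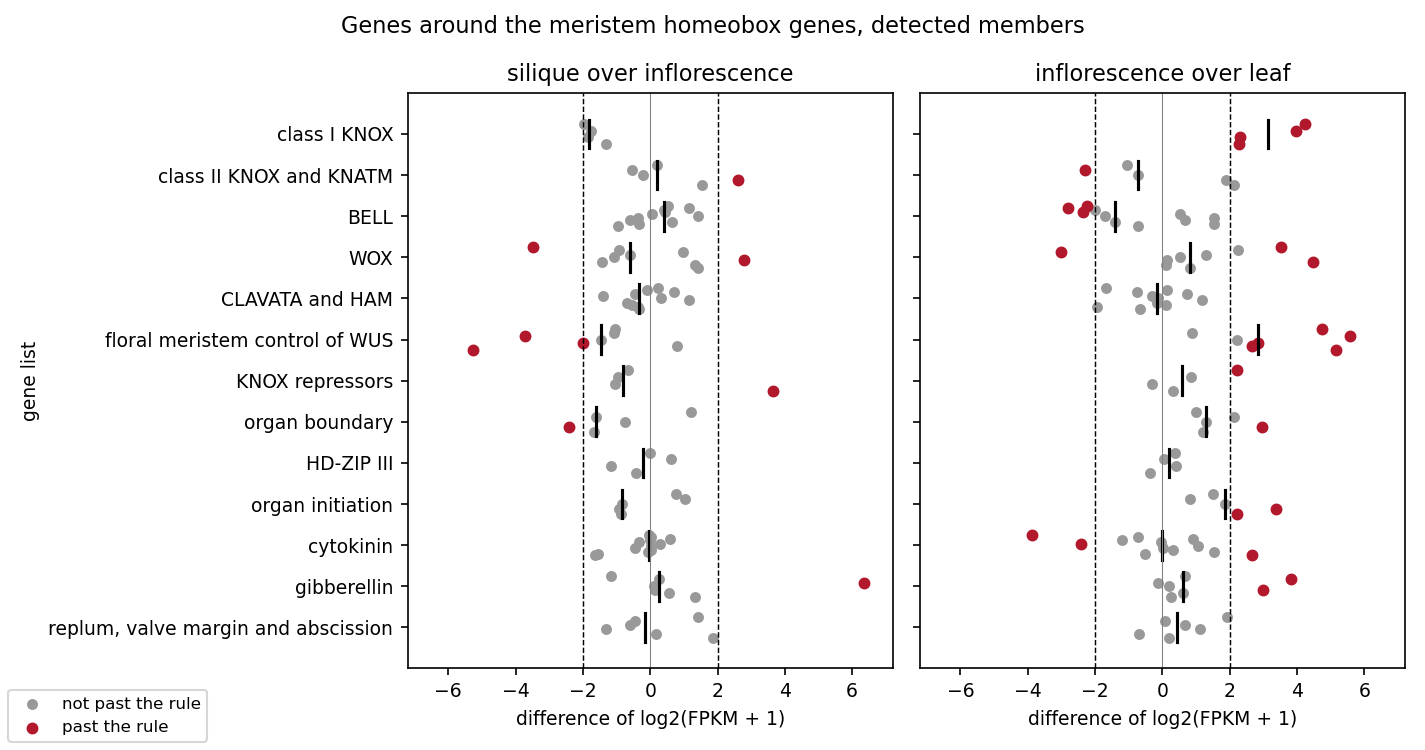
Difference of log2(FPKM + 1) for detected members of 13 gene lists, silique over inflorescence (left) and inflorescence over leaf (right); red points are past the 4-fold rule, black bars are list medians and dashed lines mark 4-fold. All 4 class I KNOX genes are past the rule on the right and none on the left.

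Markers of tissues were read in the same libraries. Dividing-cell markers (KNOLLE, CYCB1;2, CDKB1;1 and AUR1; 4 of 6 named) summed to 125.2 FPKM in silique, 127.1 in inflorescence and 7.31 in leaf. All 4 were past the rule in both organs against leaf, and 0 for silique against inflorescence, where 0 of the 4 class I KNOX genes were past it either. The median difference in that pair was -0.21 for these markers and -1.81 for class I KNOX. The dividing-cell markers went both ways there, at 0.55 for KNOLLE and 0.27 for CDKB1;1, but -0.69 for CYCB1;2 and -1.01 for AUR1. The petal and stamen genes AP3 and PI summed to 67.2 FPKM in silique, 233 in inflorescence and 0.792 in leaf. In silique these came to 63.3 FPKM for AP3 and 3.94 for PI. Pollen and tapetum markers (VGD1, BCP1, GRP17, LTP12 and A9) summed to 80.1 FPKM in silique, 1497 in inflorescence and 22.8 in leaf, with A9 listed at 0 in silique and leaf. The ovule genes STK and INO summed to 149.6 FPKM in silique, 85.5 in inflorescence and 0.214 in leaf, with INO listed at 0 in leaf. STK made up most of these sums and had the higher value in silique (144.2 FPKM, inflorescence 70.5). INO went the other way, with the higher value in inflorescence (15.1 FPKM, silique 5.38). Neither gene was past the rule in that pair. Embryo and endosperm markers (LEC1, EPR1 and MEA; 3 of 4 named) summed to 1244 FPKM in silique, 1.58 in inflorescence and 2.22 in leaf, and LEC1 and MEA were listed at 0 in leaf. Seed storage genes (SESA3, CRA1 and OLEO2) summed to 30214 FPKM in silique, 36.3 in inflorescence and 98.0 in leaf, and the leaf markers RBCS1A, CYP79F1 and GLDP1 to 11260, 7284 and 23967. RBCS1A made up most of the leaf marker sums, at 10868 FPKM in silique, 7169 in inflorescence and 21488 in leaf. CYP79F1 was at 40.1, 0.692 and 607 FPKM and GLDP1 at 352, 114 and 1872, in the same order. The part of these tissues in the levels of STM, KNAT1, KNAT2 and WUS was not tested.

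The loci next to the 4 genes, 1 on each side, were read for comparison. At STM the preceding locus, XLOC_003269, ended 175 bp before it and could not be named. It was at 4.85 FPKM in silique, 2.44 in inflorescence and 3.00 in leaf. The next locus after STM, AT1G62370, began 10764 bp beyond it and was at 5.62 FPKM in silique, 16.7 in inflorescence and 1.49 in leaf. AT1G62370 was the single neighbour past the rule in any pair, with inflorescence higher than leaf. KNAT1 lay between AT4G08145, at 0.0794 FPKM in silique, listed at 0 in inflorescence and at 0.0752 in leaf, and XLOC_024058, listed at 0 in every organ. WUS lay between AT2G17940, at 0.381 FPKM in silique, 1.49 in inflorescence and listed at 0 in leaf, and AT2G17960, listed at 0 in every organ. The neighbours of KNAT2 were AT1G70505, at 6.10 FPKM in silique, 8.69 in inflorescence and 9.14 in leaf, and AT1G70518, at 15.2, 19.7 and 20.5.

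Patterns like those of the 4 genes were sought among 13713 named loci that reached 5 FPKM in any organ, from the share of each locus's summed FPKM in each organ. The distance between loci was the largest of the 3 differences in share, as a fraction. With 3 libraries this is a coarse measure: 94 loci lay within 0.05 of STM, 95 of KNAT1, 95 of KNAT2 and 306 (2.23%) of WUS. STM and KNAT1 were 0.0192 apart, and KNAT1 was number 16 in order of distance from STM. KNAT2 was 0.0564 from STM, as number 112, and WUS 0.207, as number 1083. Nearest to STM were AT5G02570, at 4.40 FPKM in silique, 18.7 in inflorescence and 0.743 in leaf, PAP22 (a purple acid phosphatase gene) and AT5G20740. KNAT1 was closest to AT1G45227, at 3.26 FPKM in silique, 11.7 in inflorescence and 0.369 in leaf, then to AT3G05470 and AT5G09430. For KNAT2 the 3 nearest were AT1G13970, at 9.90 FPKM in silique, 57.6 in inflorescence and 4.41 in leaf, SGP2 and AT1G23150. WUS had AT1G70720 as its nearest locus, at 0.277 FPKM in silique, 37.7 in inflorescence and 0.175 in leaf, followed by AT3G28790 and AT3G28780. None of the 12 loci so named is a KNOX, BELL or WOX gene of the lists.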

How the data were processed

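RNA from 1 library per organ was sequenced with strand kept, per the series title. The deposited values are FPKM, per the file headers, 1 value per identifier and no strand. Per the submitters' processing notes, TopHat and build TAIR10 were used. Versions, the quantification tool, the annotation and the denominator of FPKM: not given in the sources used here. Summed over all loci, FPKM came to 1.07e+06 in silique, 903233 in inflorescence and 1.27e+06 in leaf. Depth is unknown, so no counting interval is given.

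The 4 members were taken by position. Other loci were named from a RefSeq gene table (assembly TAIR10.1, for names alone): a locus alone at its position, holding 1 gene by at least 50% of the gene's length, with 50% of the locus covered, and that gene in no other locus. This named 25934 loci, and 100 of the 118 genes in 13 pathway lists; 15 of the other 18 share a position with another identifier. Of 25 marker genes 22 were named. File starts were raised by 1: 39.1% of 27946 lone nuclear loci then began at a reference start, against 0.465% as given. Genes named in the text were the members, their neighbours, the 3 loci of nearest pattern, all genes of lists of 5 or fewer, otherwise the 4 widest counted ones and those against their list, 21 genes fixed by name and all markers. SUP was named beyond these. The members, lists and rules were chosen with earlier results of these data known. Counting was tested on simulated data, with changes planted only at loci of higher mean FPKM than KNAT1, WUS and KNAT2. That test does not cover levels as low as theirs or differences close to 4-fold. Python 3.11.15, numpy 2.4.6 and pandas 2.3.3 were used. Alternatives changed pseudocount, minimum, fold, scaling, distance and naming.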

Additional observations from a re-analysis of the deposited data

How the results depend on the processing

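No paired analysis was possible because each organ has 1 library. In 108 checks of the differences of the 4 genes under other settings, 88 stayed on the same side of the rule, 13 no longer passed and 7 newly passed. Minimum and fold leave the difference itself unchanged, so those checks reread the call alone. A lower minimum or fold could not remove a call, and a higher one could not add it. Where the rule had been passed, 0 changed direction. Pseudocount, minimum and fold cannot change the direction of a difference, so the scalings alone could have done so. Of 351 recomputed list medians, 25 moved by 0.5 or more on the log2 scale, all of them with a changed pseudocount. Minimum and fold do not enter these medians, so those settings could not move them.

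For silique against inflorescence, 1 gene of the 4 was counted, with 2273 loci and 9 of the list genes. With a pseudocount of 0.1 it was 3 genes, with STM at -2.04 and KNAT2 at -2.49; with a pseudocount of 5 it was 0 genes, WUS at -1.65, 1184 loci and 5 list genes. Both scalings gave 2 genes, with STM at -2.05 or -2.13. A minimum of 20 FPKM gave 0 genes (WUS unchanged at -3.48), 1352 loci and 5 list genes. At 2-fold all 4 were counted, with STM at -1.97, KNAT1 at -1.77 and KNAT2 at -1.85, beside 4497 loci and 27 list genes, and at 8-fold there were 1190 loci and 5 list genes.

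For silique against leaf, 2 genes, 3158 loci and 23 list genes were counted. A pseudocount of 5 gave 0 genes (STM 1.42, KNAT1 1.18), 1688 loci and 9 list genes. A minimum of 20 FPKM gave 0 genes, 1904 loci and 12 list genes, and 8-fold gave 0 genes, 1653 loci and 11 list genes, with STM at 2.26 and KNAT1 at 2.20 in both. At 2-fold there were 6833 loci and 38 list genes.

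For inflorescence against leaf, 4 genes, 3519 loci and 25 list genes were counted. A pseudocount of 5 left 2 genes (WUS 1.66, KNAT2 1.05), 1839 loci and 13 list genes. A minimum of 20 FPKM left 2 genes (WUS 3.51 and KNAT2 2.31 no longer counted), 2106 loci and 15 list genes. At 2-fold there were 6810 loci and 38 list genes, and at 8-fold KNAT2 (2.31) was lost, with 1730 loci and 11 list genes.

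STM and KNAT1 passed for inflorescence over leaf in all 10 settings, the main one included. The lower minimum, no minimum and 2-fold could not have removed these calls. The changes with fold and minimum follow from the rule itself. With loci from 1 FPKM, 164 lay within 0.05 of STM, 161 of KNAT1, 585 of WUS and 150 of KNAT2. By a distance on centred log2 values, 1 of the 3 loci nearest to STM remained among its 3 nearest, and 0 for KNAT1, WUS and KNAT2. The scalings, which removed log2 offsets of -0.17 and -0.23 from inflorescence over leaf, put it at 4.37 and 4.43 for STM, 4.09 and 4.15 for KNAT1, 3.59 and 3.64 for WUS and 2.41 and 2.46 for KNAT2. Low values, those of WUS in silique and leaf above all, are limited by a depth that is unknown.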
